A study of Rattus norvegicus with 4 samples.

Results

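Kainate and AMPA receptors are ion channels opened by glutamate, and their subunits are encoded by the Grik and Gria genes. Of the 9 such genes listed for this account, 7 were analysed: the 5 kainate receptor genes Grik1, Grik2, Grik3, Grik4 and Grik5, and the AMPA receptor genes Gria3 and Gria4. Each of them had 1 probe set with a single gene symbol. Gria1 and Gria2 were not analysed here, because the platform's probe-to-gene table listed Gria1 for 0 probe sets and Gria2 only on 1 probe set that it shares with a microRNA gene. The family was chosen by a measured value, the difference of Grik2 between the groups, so the values of Grik2 are given as a description and support nothing. The remaining 6 genes entered by membership of the family. They stand among 18166 genes tested in the series.

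RNA came from the uterus of Sprague Dawley rats, adults of 10 to 12 weeks, on day 5 of pregnancy, before implantation. The treated group (labelled T, 2 arrays) received ormeloxifene by mouth on day 1 of pregnancy, 1.25 mg per kg prepared in gum acacia. Rats of the control group (labelled C, 2 arrays) received only the vehicle. Ormeloxifene, an oral contraceptive, is a selective modulator of oestrogen receptors without a steroid structure. The labels call the samples biological replicates 1 and 2 of each group; the sources used here do not give how many rats stand behind an array. Whole uterus holds epithelium, stroma, muscle, vessels, nerves and immune cells. A higher or lower signal from more or fewer cells of a type, and from more or less RNA per cell, therefore cannot be told apart.

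Receptors of both classes assemble from 4 subunits, as textbook background, and are best known for fast excitatory transmission between neurons. Products of Grik1, Grik2 and Grik3 can form kainate channels on their own, while those of Grik4 and Grik5 need one of these as a partner. The auxiliary proteins Neto1 and Neto2 bind kainate receptors and shape their gating. RNA editing by the enzyme that Adarb1 encodes alters the pore of several of these subunits. Outside the nervous system, transcripts of glutamate receptors are also found in some gland and immune cells.

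All values below are log2 signals after quantile normalization, so a difference of 1 is a doubling. Differences are ormeloxifene minus vehicle with a standard error and 95% interval from limma, fitted over all genes tested. Single levels of different genes are not set against each other, because probe sets differ in their response. A signal percentile instead places a gene's mean among all genes tested. The table deposited for the series gives no detection calls.

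Stromal and smooth muscle markers of the uterus were among the brighter signals. Signal percentiles of the 11 measured stromal markers ran from 89.7 to 99.9, with Pdgfra at 96.5 and Hoxa10 at 92.9, and those of the 8 measured smooth muscle markers from 79.4 to 99.8, with Myh11 at 99.2. The 11 measured epithelial markers ran from 23.4 to 98.1 (median 67.7), with Epcam at 90.8. The 17 neuronal markers ran from 5.92 to 67.2 (median 25.9), with Snap25 at 29.4 and Tubb3 at 33.9, and the 10 measured glial markers from 11.2 to 99.0 (median 48.5), with Sox10 at 48.5. These percentiles are a rough guide, since probe sets differ in response. The arrays resembled each other more within a replicate number than within a group. Over the genes tested, arrays that share a number correlated at r = 0.980 and 0.983, against 0.973 for the ormeloxifene arrays and 0.963 for the vehicle arrays (genes are not independent replicates). Differences within each number are therefore drawn beside the pooled ones for every receptor subunit gene analysed, and given in the text for some genes. By limma, 0 of all 18166 genes (0%) passed an adjusted p under 0.05, while 399 (2.20%) had an unadjusted p under 0.05.

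Grik2, which encodes a pore-forming kainate receptor subunit, was the member with the widest gap between groups. It was measured by probe set 17759443. Its signal was 5.72 and 5.51 on vehicle arrays 1 and 2, and 7.30 and 7.34 on ormeloxifene arrays 1 and 2. Both ormeloxifene arrays lay far above both vehicle arrays, and neither group spread by more than 0.22 between its arrays. The group means were 5.62 ± 0.15 with vehicle and 7.32 ± 0.03 with ormeloxifene (SD, n = 2 each), a difference of 1.70 ± 0.21 (SE), or 3.26-fold higher, with an interval from 1.22 to 2.19. Within number 1 the difference was 1.57 and within number 2 it was 1.83. On the values as deposited the signals were 5.66 and 5.54 with vehicle and 7.14 and 7.49 with ormeloxifene, a gap of similar size. In the fit across all genes, from which Grik2 was singled out, its adjusted p by limma was 0.240, which does not pass the threshold. Whether it passed depended on the setting: it did so in 3 of 12 alternatives, and its adjusted p by limma ran from 1.43e-06 to 1.00 over all of them.

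**Figure D1:**
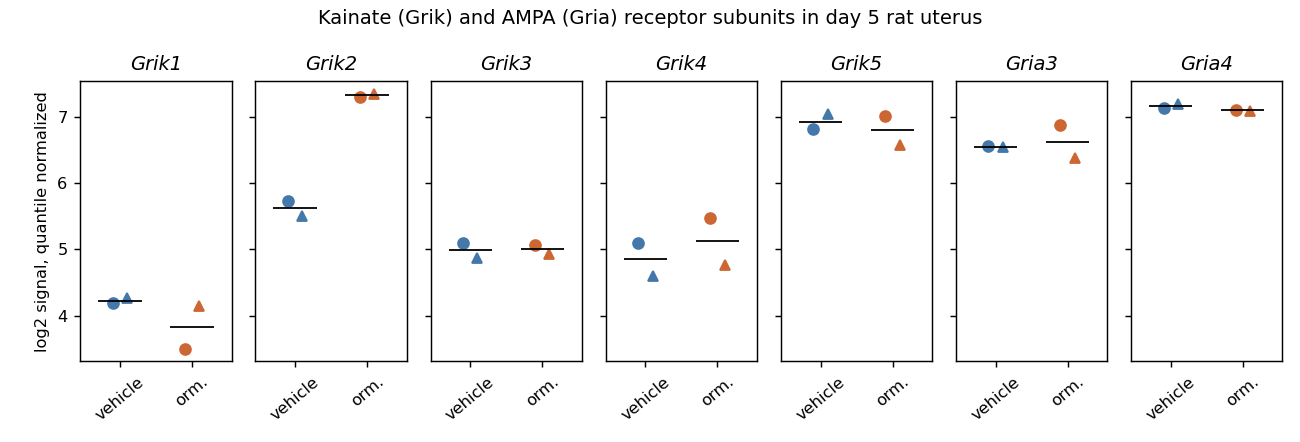
Log2 signal after quantile normalization (vertical axis) of 7 receptor subunit genes on each of the 4 arrays, with vehicle in blue and ormeloxifene (orm.) in orange. Circles are replicate 1, triangles are replicate 2 and black lines are group means; Grik2 rises from a mean of 5.62 to 7.32, while the group means of the other genes differ by at most 0.40.

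Grik1, which encodes another pore-forming kainate subunit, was dim, at the 7.17th percentile of signal. It read 4.19 and 4.27 on the vehicle arrays and 3.50 and 4.15 on the ormeloxifene arrays. Its difference of -0.40 ± 0.26 had an interval from -1.01 to 0.21, and it came mostly from ormeloxifene array 1, with -0.69 within number 1 against -0.12 within number 2. The ormeloxifene arrays differed from each other by 0.64, more than the groups did.

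Grik3, the third pore-forming subunit gene of the class, did not differ detectably. It read 5.10 and 4.87 with vehicle and 5.06 and 4.93 with ormeloxifene. The ormeloxifene values lay between the vehicle values, and the difference was 0.01 ± 0.21 with an interval from -0.48 to 0.51.

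The partner subunit genes Grik4 and Grik5 showed overlapping groups. Grik4 read 5.10 and 4.60 with vehicle and 5.48 and 4.77 with ormeloxifene. In both groups array 1 was the higher one, by 0.49 with vehicle and 0.71 with ormeloxifene, and the group difference of 0.27 ± 0.30 (interval from -0.43 to 0.97) was smaller than either gap. Grik5, at the 64.8th percentile of signal, read 6.81 and 7.03 with vehicle and 7.01 and 6.58 with ormeloxifene. Its difference was -0.13 ± 0.24 (interval from -0.68 to 0.43), with 0.20 within number 1 and -0.46 within number 2, so the replicate numbers pointed opposite ways.

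The AMPA receptor genes were nearly level between groups. Gria3 read 6.55 and 6.53 on the vehicle arrays and 6.87 and 6.38 on the ormeloxifene arrays, which lay on either side of the vehicle values. Its difference was 0.08 ± 0.24, with an interval from -0.47 to 0.63. Within number 1 it was 0.32 and within number 2 it was -0.16, so the numbers pointed opposite ways. Gria4, at the 71.2th percentile, read 7.12 and 7.18 with vehicle and 7.10 and 7.08 with ormeloxifene. The difference of Gria4 was the most narrowly bounded of the 7, at -0.06 ± 0.20 with an interval from -0.53 to 0.41.

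**Figure D2:**
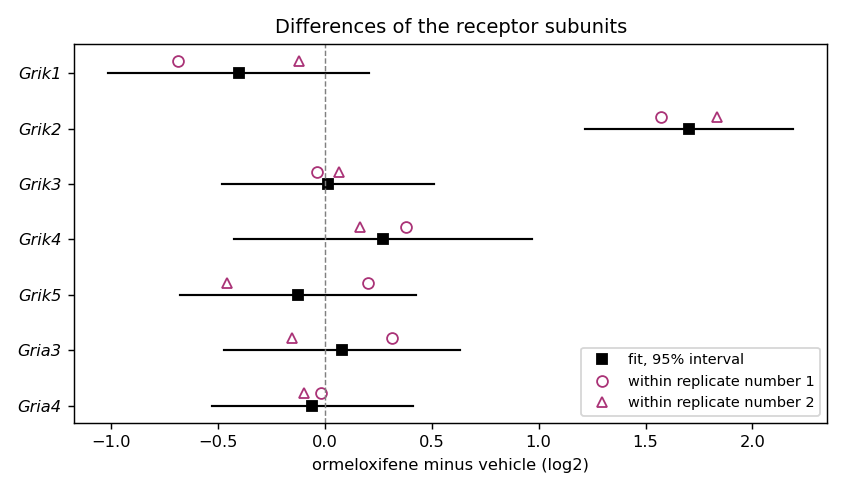
Difference between ormeloxifene and vehicle (horizontal axis, log2) for 7 receptor subunit genes. Squares with lines are the limma estimate and its 95% interval, and open symbols are the differences within replicate number 1 (circles) and 2 (triangles); the interval of Grik2 runs from 1.22 to 2.19, and the other 6 intervals include 0.

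Counted over the family, 4 of the 7 genes were higher and 3 lower with ormeloxifene. Their median difference was 0.01, against 0.02 over all genes tested, and without Grik2 it was -0.02. At an unadjusted p under 0.05 stood 1 member, against 2.20% of all genes; it was Grik2, by which the family was chosen, so nothing is read from this count. Of the 7, 0 passed an adjusted p under 0.05 (adjusted p by limma 1.00 for each of the other 6, whose unadjusted p ran from 0.164 for Grik1 to 0.946 for Grik3). The groups did not overlap in 1 member with ormeloxifene higher, Grik2, where this held for 13.9% of all genes, and in 2 members with ormeloxifene lower, Grik1 and Gria4, where it held for 11.8%. On the values as deposited the groups of Grik1 and Gria4 overlapped, and those of Grik2 did not. Of the 7 genes, 3 (Grik1, Grik3 and Grik4) lay under the 25th percentile of signal. For these dim genes the intervals bound the measured signal, which was not set against background.

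Partners of the receptors were read from lists of glutamate genes sorted by role. Of 78 such genes outside the family, 69 were measured; 39 were higher and 30 lower with ormeloxifene, with a median of 0.06. At an unadjusted p under 0.05 stood 3 of the 69 (4.35%, against 2.20% of all genes). Of these, 1 was higher and 2 were lower, and 0 of the 69 passed the adjusted threshold. The lists were chosen with earlier results known, so nothing is read from the share of 4.35%. The groups did not overlap in 14 of the 69 with ormeloxifene higher, against 13.9% of all genes. They did not overlap in 7 of the 69 with ormeloxifene lower, against 11.8% of all genes. Counts of the 69 stand here beside shares in percent, and nothing is read from them either.

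Among the 13 proteins that bind kainate receptors, the one gene at an unadjusted p under 0.05 was Neto1, an auxiliary subunit of these receptors. Neto1 read 6.41 and 6.14 with vehicle and 7.06 and 6.93 with ormeloxifene. Both ormeloxifene arrays were above both vehicle arrays, which held for 13.9% of all genes. The difference was 0.72 ± 0.21 or 1.65-fold, with 0.65 within number 1 and 0.79 within number 2 (unadjusted p = 0.0107, adjusted p = 1.00 by limma). With 1 array left out, the difference was 0.66 without ormeloxifene replicate 1 and 0.59 without vehicle replicate 2. It was 0.79 without ormeloxifene replicate 2 and 0.85 without vehicle replicate 1. Over the main fit and the 12 alternatives, the unadjusted p of Neto1 by limma was under 0.05 in 11 of 13. The related auxiliary gene Neto2 read 5.57 and 5.89 with vehicle and 5.17 and 5.49 with ormeloxifene, a difference of -0.40 ± 0.23 with an interval from -0.94 to 0.14. That of Neto1 ran from 0.22 to 1.22, and the difference between these 2 genes was not tested. Of the 13, 6 were higher and 7 lower, with a median of -0.04.

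Among 22 measured auxiliary and partner proteins of AMPA receptors, 13 were higher and 9 lower, with a median of 0.07. The one gene at an unadjusted p under 0.05 was Cnih3, a cornichon protein that travels with AMPA receptors to the membrane. It read 5.56 and 5.75 with vehicle and 5.20 and 5.13 with ormeloxifene, a difference of -0.49 ± 0.21 (unadjusted p = 0.0483 by limma). On the values as deposited its unadjusted p by limma was 0.140.

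The other classes of glutamate receptor showed no gene at an unadjusted p under 0.05. Of the 7 NMDA receptor subunit genes, 2 were higher and 5 lower with a median of -0.17, and the smallest p was that of Grin3b, at -0.19 ± 0.20. Of 5 measured metabotropic receptor genes, which signal through G proteins, 3 were higher and 2 lower with a median of 0.06. Grm5 had the smallest p of these, at 0.50 ± 0.23 with an interval from -0.04 to 1.04, and it was dim (17.6th percentile). All 3 RNA editing genes lay within 0.09 of 0, the smallest p being that of Adarb2 at 0.09 ± 0.23; Adarb1 itself was at 0.03 ± 0.21.

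Genes that move, make or use glutamate or glutamine were read last. Of 11 transporter genes, 7 were higher and 4 lower with a median of 0.15. Slc7a11, which encodes the exchanger that releases glutamate in return for cystine, had the largest difference on the lower side of all 69 genes. It read 7.55 and 6.84 with vehicle and 6.58 and 5.84 with ormeloxifene. The groups did not overlap, as in 11.8% of all genes on the lower side, although array 1 was higher by more than 0.7 in each. The difference was -0.98 ± 0.33, 1.98-fold lower, with -0.97 within number 1 and -0.99 within number 2 (unadjusted p = 0.0193, adjusted p = 1.00 by limma). With 1 array left out, the difference was -0.62 without ormeloxifene replicate 2 and -0.62 without vehicle replicate 1. It was -1.35 without ormeloxifene replicate 1 and -1.34 without vehicle replicate 2. Over the main fit and the 12 alternatives, the unadjusted p of Slc7a11 by limma was under 0.05 in 11 of 13. Of 8 measured enzymes of glutamate and glutamine metabolism, 5 were higher and 3 lower with a median of 0.03, and the aminotransferase gene Gpt had the smallest p at 0.26 ± 0.21.

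**Figure D3:**
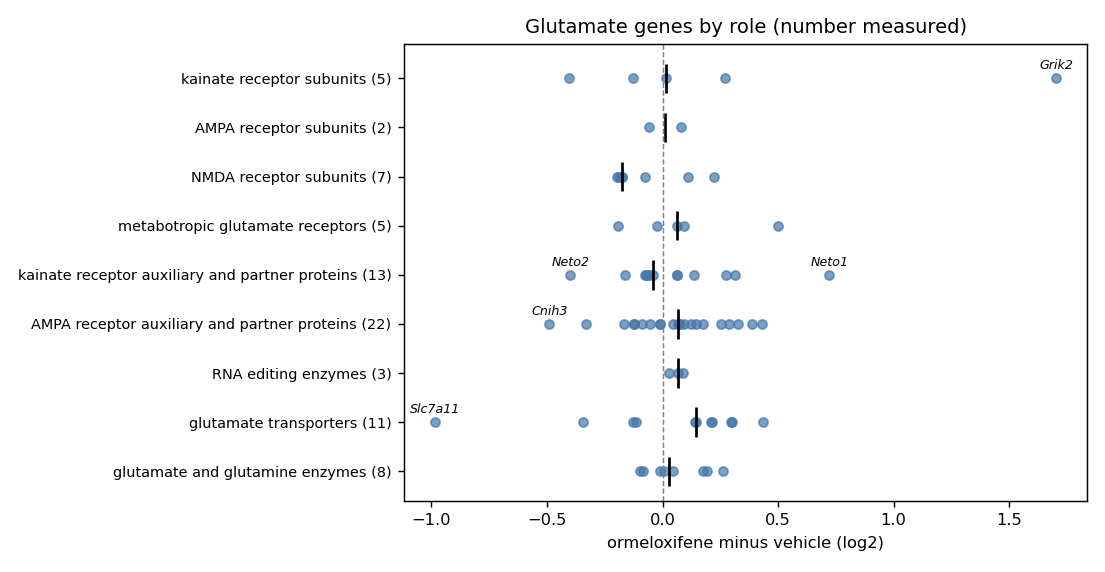
Difference between ormeloxifene and vehicle (horizontal axis, log2) of each measured glutamate gene, 1 point per gene, in 9 lists by role with the number measured in brackets. Vertical bars are list medians, which lie between -0.17 and 0.15; Grik2 at 1.70, Neto1 at 0.72 and Slc7a11 at -0.98 stand farthest from 0.

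Markers of the cell types that could carry these transcripts were read on the same arrays, as summed linear signals of each list. Of 17 neuronal markers, 7 were higher and 10 lower, and their sum ran from 742 to 875 with vehicle and from 770 to 818 with ormeloxifene. Of 10 measured Schwann cell and glial markers, 7 were higher and 3 lower, with sums from 2016 to 2105 and from 1884 to 2729. The groups overlapped in both sums. The glial sum was mostly Pmp22, and the 9 other markers summed to between 589 and 664 with vehicle and between 601 and 644 with ormeloxifene. With ormeloxifene higher, the sums did not overlap for smooth muscle, endothelium and immune cells. For smooth muscle (8 of 8 measured markers higher) they ran from 10836 to 11946 with vehicle and from 13059 to 14497 with ormeloxifene. For endothelium (7 of 8 higher) they ran from 1633 to 1744 and from 1866 to 1935. For immune cells (9 of 12 higher) they ran from 4743 to 5587 and from 5917 to 6672. The immune sum was largely Cd74, a gene of the class II histocompatibility pathway; without it the sums were 2409 and 2953 with vehicle and 2694 and 3449 with ormeloxifene, which overlap. Without their brightest marker the sums of smooth muscle (Tagln left out) and endothelium (Emcn left out) still did not overlap. These sums without the brightest marker were added after the data were seen. Over single genes the groups did not overlap in 13.9% of all genes with ormeloxifene higher and in 11.8% with ormeloxifene lower. No such share was worked out for sums, so nothing is read from sums that did not overlap. Smooth muscle and endothelial sums moved the same way as Grik2, and their part in its difference was not tested. Epithelial and stromal sums overlapped, from 2356 to 2802 against 2573 to 2652 for epithelium and from 17585 to 18738 against 18333 to 19693 for stroma. Of the 11 measured epithelial markers, 4 were higher and 7 lower. Only the transcription factor gene Elf3 stood at an unadjusted p under 0.05 (0.0492 by limma), at -0.48 ± 0.21. It did not pass the adjusted threshold. Of 7 measured markers of ovary and oviduct, tissues that adjoin the uterus, 5 were higher and 2 lower with a median of 0.14. Their sum was lower with ormeloxifene and narrowly did not overlap, at 519.55 and 597.5 with vehicle and 477.7 and 519.45 with ormeloxifene. Without Pax8, their brightest member, they summed to 248 and 277 with vehicle and to 251 and 285 with ormeloxifene, which overlap. In the lists with no gene at an unadjusted p under 0.05, the smallest p was that of Tubb3 among neuronal markers (-0.36 ± 0.23), Ncam1 among glial (-0.45 ± 0.20), Synpo2 among smooth muscle (0.45 ± 0.22), Cdh5 among endothelial (0.25 ± 0.21), Cd74 among immune (0.38 ± 0.21), Hand2 among stromal (-0.31 ± 0.21) and Pax8 among ovary and oviduct markers (-0.35 ± 0.21).

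The genes beside Grik2 on its chromosome did not share its difference. Grik2 lies on chromosome 20 of the GRCr8 annotation, used here only for the order of genes. On one side the nearest 3 genes tested were Hace1 (-0.18 ± 0.23), Lin28b (-0.21 ± 0.21) and Prep (-0.05 ± 0.21). On the other side only Ascc3 (-0.12 ± 0.23) and Sim1 (0.22 ± 0.22) were left before the end of the tested genes. All 5 intervals included 0.

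The genes whose profile over the 4 arrays came closest to that of Grik2 were RT1-Db1, Lrrc26, Aqp8, Padi2 and C3. Likeness was measured as the root mean square distance between values centred on each gene's own mean, and it was 0.18, 0.20, 0.27, 0.27 and 0.28 in that order. With 4 arrays and a large group difference in Grik2, this measure picks out genes of large difference, here from 1.18 for C3 to 1.96 for RT1-Db1.

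As ormeloxifene binds oestrogen receptors, the start region of Grik2 is shown with a search for the letters these receptors are known to bind. The sequences come from RefSeq on GRCr8 and span 250 bases before to 50 after the annotated start; 6 of the 7 genes matched, Gria3 being the exception. Both strands were searched for the core GGTCA, for the full palindrome of GGTCA and TGACC with any 3 bases between them, which holds the core, and for the AP-1 site TGANTCA, since oestrogen receptors also act through AP-1. The 250 bases before the start of Grik2, on the minus strand at chr20:54415284-54415533, are printed first, in lower case throughout because no searched letters occur in them. The stretch of Grik1 that holds the family's only core, on the minus strand at chr11:41056659-41056703, follows with the match in capitals.
Grik2: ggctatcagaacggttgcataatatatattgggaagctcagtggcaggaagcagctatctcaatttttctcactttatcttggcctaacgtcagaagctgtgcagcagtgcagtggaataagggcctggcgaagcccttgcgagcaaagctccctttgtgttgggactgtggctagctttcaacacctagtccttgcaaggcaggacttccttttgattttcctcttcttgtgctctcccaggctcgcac
Grik1: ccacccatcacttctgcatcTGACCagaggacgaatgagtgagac

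The core was found in 1 of the 6 windows, that of Grik1, 180 bases before its start, and in 40.5% of all 33469 windows in the table. The full palindrome was found in 0 of the 6 and in 0.0269% of all, and the AP-1 site in 0 of the 6 and in 7.33% of all. The windows of the family also differed in base composition. That of Grik2 held 50.3% G and C with 8 CG dinucleotides, close to the medians of 51.7% and 7 over all windows, while that of Grik3 held 82.3% with 49, and that of Grik4 44.0% with 4. A match describes letters only, and its absence says nothing of receptor binding elsewhere in these genes.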

How the data were processed

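Values were the log2 signals of 36685 probe sets on 4 Affymetrix arrays, as deposited by the authors. Per the submitters' processing notes they used Affymetrix Expression Console; the sources used here give neither its version nor the summary method or genome build. That the scale is log2 was judged from the range of values. Array medians ran from 5.67 to 5.93, so values were quantile normalized over all probe sets. The probe-to-gene table left 17599 probe sets unnamed, put several symbols on 575 and 1 symbol on 18511; of probe sets sharing a symbol the one with the highest mean was kept, leaving 18166 genes. Differences were fitted without a block by limma 3.58.1 (lmFit, eBayes, 2-sided) in R 4.3.3. P-values were adjusted by Benjamini-Hochberg over every gene tested, with a threshold of 0.05. Residual degrees of freedom were 2, or 7.55 after moderation. The script was tested on simulated data. The number of arrays limits the precision, and an exact permutation test of 1 gene cannot go below p = 0.333.

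The members and lists were chosen with earlier results of these data known. All 9 members were to be named; of each list up to 3 genes with the smallest unadjusted p under 0.05, or else the 1 with the smallest p; the 5 genes most like Grik2; the 3 nearest tested genes on each side; and defining cell type markers. Adarb1 and Neto2 were named outside that rule, after their values were seen, for their known roles. Alternatives were other scalings, filters, variance models, the replicate number as a block and each array left out.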

Additional observations from a re-analysis of the deposited data

How the results depend on the processing

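The direction of Grik2 was the same in all 12 alternatives, with differences from 1.60 to 1.81. Its adjusted p by limma passed with the replicate block (0.0339), with that block on deposited values (1.43e-06) and with dim genes left out (0.0258), but not in the others, where it ran from 0.0539 to 1.00. Genes called over all genes, 0 as reported, were 1 with arrays centred on their medians, 1 with probe sets of a gene averaged, 3 with a trended variance, 4 with dim genes left out, 5 with the replicate block and 84 with that block on deposited values, and ran from 0 to 3 with an array left out. Members at an unadjusted p under 0.05 were 2 with the latter and ran from 1 to 2 with an array left out; the second was Grik1, at -0.73 without ormeloxifene replicate 2. The members' median ran from -0.08 to 0.09. Leaving out 1 array turned the sign of Grik3 (from -0.10 to 0.13), Grik4 (from -0.083 to 0.63), Grik5 (from -0.34 to 0.091) and Gria3 (from -0.16 to 0.32), none of them called. With an array left out, a group of 1 is taken to vary like the other. The replicate numbers are then unequal between groups, so a turned sign cannot be told apart from a difference between numbers. Slc7a11 passed the adjusted threshold by limma only with the block on deposited values (0.0145), and Neto1 in none (lowest 0.113). The labels do not say that a number marks a shared animal or day. Same-numbered arrays deviated together (r = 0.475 across genes), and identical deposited values at a probe set occurred 488 and 551 times between them and 0 times in the 4 other array pairs.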
